A study of Oidiodendron maius Zn with 6 samples.

Results

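The 200 gene models described here were the most abundant of those whose transcript level differed by less than 1.5 times between mycelium of the fungus Oidiodendron maius Zn grown on BSA, on peat and on glucose. They were chosen by the read counts of all 6 libraries from 16703 gene models in all. For the choice, the total gene reads of the 2 libraries of a condition were summed and expressed as counts per 1000000 gene reads (CPM). BSA and peat were then rescaled so that the median ratio to glucose was 1 over the 7309 models with at least 20 CPM in all 3 conditions. Models whose highest condition was under 1.5 times the lowest were kept and ranked by their lowest condition, and the first 200 are the members. Their stability between the carbon sources is therefore a property of the choice and not a finding.

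The mycelium was free-living, without a plant host, and was 45 days old on agar plates at pH 4.7, on a cellulose membrane, per the labels' protocols. The medium was a modified Melin-Norkrans medium amended with BSA (bovine serum albumin, a protein, at 0.1 g per L), with peat (partly decayed plant matter, about 10 g dry weight) or with glucose (1 g per L). Each condition had 1 library of paired 75 nt reads and 1 of single 75 nt reads, and all 6 came from the same strain. The medium recipe itself lists glucose and an ammonium salt, and the sources used here do not state whether the plates with BSA or peat held these too. The deposited names mark the glucose libraries by ammonium, so a difference in nitrogen source could not be told apart from one in carbon source. The amendments differed in amount as well as in kind, and these cannot be told apart.

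Oidiodendron maius is an ascomycete that forms ericoid mycorrhiza, an association with the roots of plants of the heather family, and it can also live on dead organic matter. In fungi in general, the transcripts that stay abundant across media often encode parts of the ribosome, translation factors, histones, and enzymes of glycolysis and respiration. Such transcripts are candidates for reference genes in quantitative PCR, where a level that holds across conditions is needed. The tables name each model by a JGI protein ID (Oidma1) and pair no ID with a product, so which functions the members have was not determined here. No sequence was used here for the same reason, and the members are described by level, length, ratios and read composition.

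The libraries held 893061 to 1043870 gene reads with paired reads and 20008329 to 24690601 with single reads. The paired-read library gave 4.27% of the summed reads in BSA, 4.06% in peat and 4.22% in glucose, so the choice rested almost entirely on the single-read libraries. The 2 libraries of a condition differed in read layout, and 74 members were called between layouts in the test given with the layout values. Beyond an effect of layout common to all conditions, they differed by little more than sampling. With that effect taken out for each model, the chi-square statistic of the members' unique reads was 1.13 per degree of freedom, against 1.06 over 10373 models. They were counted as 1 sample per condition (n = 1), since no label ties them to different cultures. All levels are shares of gene reads. As in any bulk sample, fewer hyphae of a kind and less RNA per hypha cannot be told apart.

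The members together held 14.8% to 16.5% of the transcript reads. Their share of the gene reads was 14.8% for BSA (exact 95% interval from 14.79 to 14.83), 15.6% for peat (15.61 to 15.64) and 16.5% for glucose (16.5 to 16.53). In the paired-read libraries the shares were 15.7%, 16.4% and 17.3%, and in the single-read libraries 14.8%, 15.6% and 16.5%. The choice used these reads and required near-equal levels after rescaling, so the order of the unscaled shares follows the scaling factors (0.907 for BSA, 0.97 for peat) and is no result. On the rescaled CPM the shares were 16.3% in BSA, 16.1% in peat and 16.5% in glucose. The 134 models that were as abundant in their lowest condition but past the fold limit held 21.1% in BSA, 15.3% in peat and 12.4% in glucose on the same scale. The 10 most abundant members held 22.3% of the member reads in BSA, 23.5% in peat and 21.8% in glucose. At the depth of the single-read libraries every member had between 5786 and 272732 reads, and in the paired-read libraries between 243 and 11181. Intervals cover counting error only, since reads without molecular identifiers are not independent molecules.

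The most abundant member by a wide margin was protein ID 165310, a model of 1734 nt. It had 10867 CPM in the paired-read and 10825 CPM in the single-read library of BSA, 10711 and 11046 CPM in those of peat, and 10046 and 10271 CPM in those of glucose. The 6 values lay close together, with both BSA and both peat libraries above both glucose libraries. This transcript alone accounted for 1.08% of the gene reads of BSA (exact interval from 1.08 to 1.09), 1.1% of those of peat (1.1 to 1.11) and 1.03% of those of glucose (1.02 to 1.03). On the rescaled CPM its highest condition, BSA, was 1.16 times its lowest, glucose (counting interval from 1.16 to 1.17).

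Protein ID 19281 (763 nt) came second, with 3954 and 3716 CPM in the BSA libraries, 4438 and 4022 CPM in the peat libraries, and 5197 and 4915 CPM in the glucose libraries (paired-read value first here and below). Both glucose libraries were above all others. Protein ID 148577 (1519 nt) had 3272 and 3029 CPM in BSA, 5105 and 4828 CPM in peat, and 3873 and 3651 CPM in glucose. The peat libraries stood clear of the rest, and its fold of 1.49 between peat and BSA was close to the limit of the choice. Protein ID 17500 (1557 nt) had 3410 and 3013 CPM in BSA, 2849 and 2492 CPM in peat, and 3051 and 2787 CPM in glucose. Here the paired-read library was the higher one in each condition, and libraries of different conditions overlapped across layouts. Within each layout BSA was highest and peat lowest.

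Protein IDs 16588 (522 nt) and 16586 (888 nt), whose ID numbers are close, were both highest in peat. Protein ID 16586 had 2112 and 1908 CPM in BSA, 3200 and 2984 CPM in peat, and 2182 and 2053 CPM in glucose. Protein ID 16588 had 2395 and 2276 CPM in BSA, 3290 and 3054 CPM in peat, and 2837 and 2774 CPM in glucose. For both models the peat libraries lay above all the others. Protein ID 21319 (2466 nt) was lowest in peat, at 2053 and 1959 CPM, with 2898 and 2705 CPM in BSA and 2489 and 2441 CPM in glucose. Protein ID 147882 (1544 nt) was lowest in BSA, at 1928 and 1689 CPM, with 2627 and 2457 CPM in peat and 2728 and 2539 CPM in glucose. Among the 8 most abundant members the lowest condition was thus BSA for some, peat for others and glucose for others, with folds from 1.16 to 1.5.

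**Figure D1:**
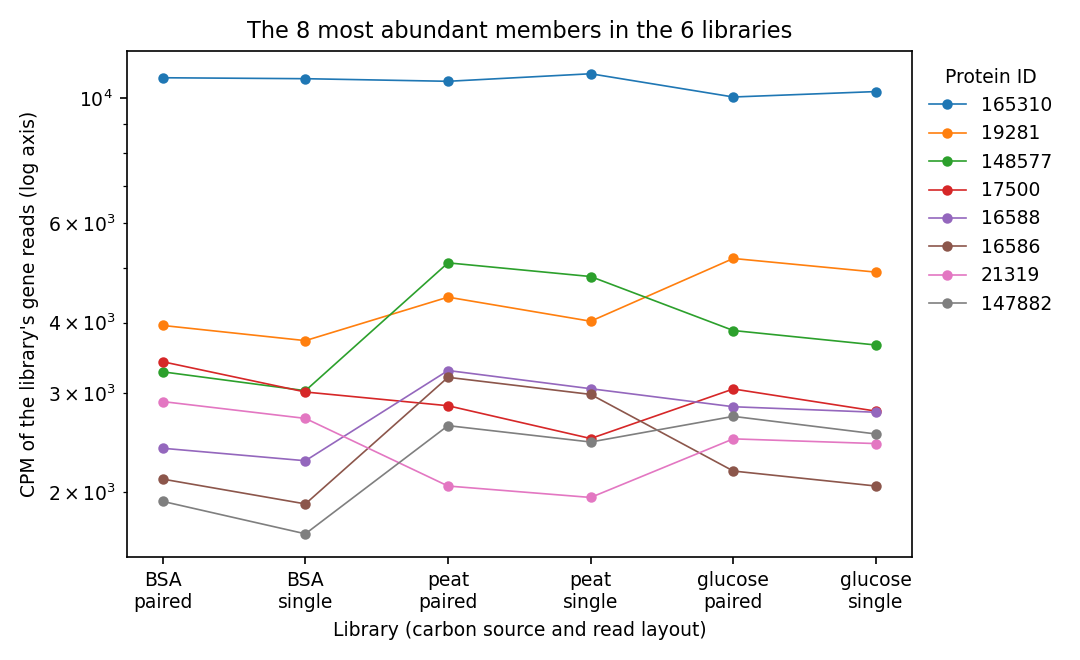
CPM of each library's gene reads (log axis) for the 8 most abundant members, in the paired-read and the single-read library of BSA, peat and glucose; each line joins the values of 1 protein ID. Protein ID 165310 stays between 10046 and 11046 CPM, and the other 7 lie between 1689 and 5197 CPM.

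The levels fell off steeply after the first ranks. Of the 200 members, 7 had at least 2000 CPM in their lowest condition, 36 had at least 1000 CPM and 93 had at least 500 CPM. The lowest-condition level had a median of 477 CPM and a range of 318 to 10262 CPM. Ordered by summed reads, 34 pairs of neighbours had exact intervals that did not overlap, so the rank of most members is not resolved from the next by counting alone. The last members were protein ID 175004, at 372 CPM in BSA, 334 CPM in peat and 319 CPM in glucose on the rescaled CPM, and 21412, at 396, 318 and 422 CPM. Just outside, in the next ranks, stood 178361, with 317 CPM in BSA, 417 CPM in peat and 324 CPM in glucose, and 168314, with 319, 317 and 355 CPM.

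**Figure D2:**
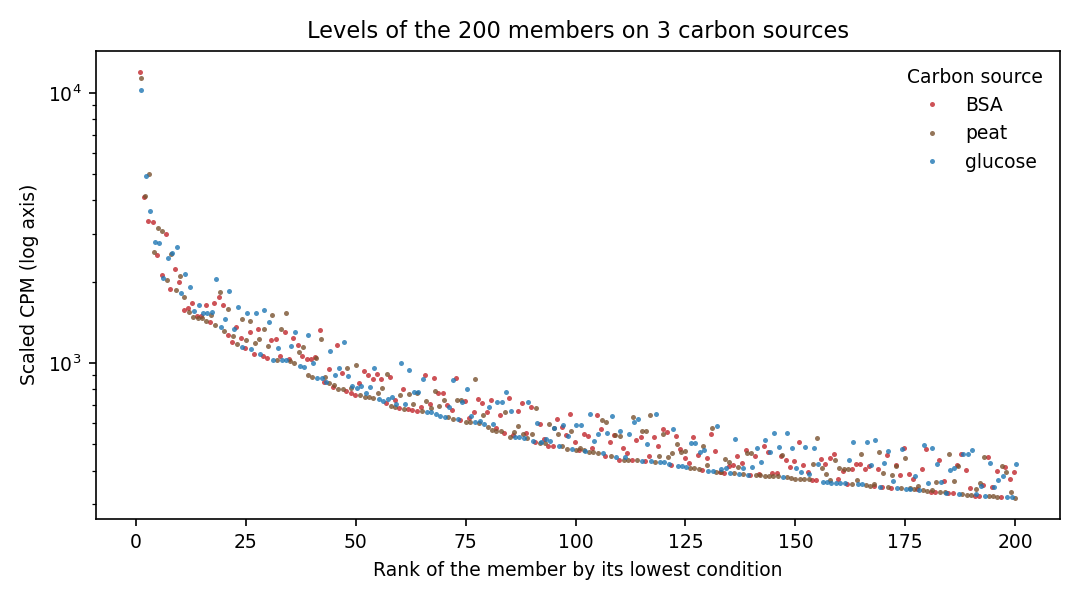
Rescaled CPM (log axis) of the 200 members in BSA, peat and glucose, ordered by rank of the lowest condition. The lowest-condition level runs from 10262 CPM at rank 1 to 318 CPM at rank 200, and the 3 points of a member lie within 1.5 times of each other by the choice.

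Per length, the order changed. In RPKM (reads per kilobase of model and per 1000000 gene reads, from the rescaled CPM and the model length) the members spanned 70.3 to 5918 in their lowest condition, with a median of 399. Protein ID 165310 again led, with 6883 RPKM in BSA, 6560 in peat and 5918 in glucose, followed by 19281 with 5384, 5458 and 6458. The short model 16588 came next, with 4817 RPKM in BSA, 6051 in peat and 5320 in glucose. Protein ID 21191 (514 nt), which ranked 18 by CPM, followed 16588 per length with 3250, 2685 and 3972 RPKM. Of the 10 members highest per length, 5 were also among the 10 highest by CPM, and of the highest 50 the 2 orders shared 36. At the other end stood the longest member, 155325 (4542 nt), with 90.8 RPKM in BSA, 86.9 in peat and 70.3 in glucose.

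Members were not equal across the carbon sources, only within the limit. Their fold between the highest and the lowest condition had a median of 1.27 and ran from 1.03 to 1.5, with 17 members under 1.1, 66 under 1.2 and 121 under 1.3. At this depth the counting interval of this fold held 1 for 1 member and lay above 1 for all the others. The highest and the lowest condition were picked from the same reads, and the interval does not allow for that pick. It also takes the scaling factors as exact. An interval above 1 is therefore not read as a difference between carbon sources. The interval lay wholly under 1.5 for 186 members and reached 1.5 for the other 14. The interval was 0.0634 wide at the median member. It covers counting error only, so how far these folds exceed the spread between cultures cannot be read from 1 sample per condition.

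The member with the smallest fold was protein ID 106766 (1388 nt), with 373 and 357 CPM in the BSA libraries, 375 and 385 CPM in the peat libraries, and 422 and 404 CPM in the glucose libraries. On the rescaled CPM these became 394 in BSA, 396 in peat and 404 in glucose, a fold of 1.03 with an interval from 0.995 to 1.06. It was the only member whose interval held 1. Protein ID 103301 (1474 nt) stood at 343 CPM for BSA, 352 for peat and 341 for glucose, a fold of 1.03 (1.002 to 1.07). Protein ID 19863 (1112 nt) had 525, 504 and 526 CPM, and 99880 (1432 nt) had 544, 558 and 533 CPM. The most abundant of the 5 steadiest was protein ID 206429 (2119 nt, rank 15), with 1437 and 1352 CPM in the BSA libraries, 1455 and 1419 CPM in the peat libraries, and 1596 and 1525 CPM in the glucose libraries. Its rescaled levels were 1494, 1465 and 1528 CPM, a fold of 1.04 (1.03 to 1.06). The edgeR test given below called neither 103301 nor 206429 in any comparison of carbon sources, though both intervals lay above 1. The unscaled values of 106766 and 206429 were highest in glucose, and their evenness rests in part on the rescaling.

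Just inside the limit lay protein ID 20204 (618 nt), at 534 CPM for BSA, 431 for peat and 647 for glucose, and 16586, both with a fold of 1.499. Just outside lay 124456 (1512 nt), at 514 CPM for BSA, 772 for peat and 565 for glucose (1.503), and 192288 (1873 nt), at 830, 604 and 908 CPM (1.504). The counting intervals of the inner models (1.46 to 1.54 for 20204) and the outer ones (1.47 to 1.54 for 124456) overlapped, so the edge of the set is not sharp.

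No one carbon source set the pattern inside the limit. The highest level was found in BSA for 73 members, in peat for 45 and in glucose for 82, and the lowest in BSA for 49, in peat for 85 and in glucose for 66. The most common order, highest in glucose and lowest in peat, held for 53 members with a median fold of 1.31, and the rarest, highest in peat and lowest in BSA, for 20 with 1.27. These counts depend on the scaling. With TMM factors 89 members were highest in BSA, 48 in peat and 63 in glucose, and without rescaling 41, 57 and 102. The median log2 ratio of all 7309 models against glucose moved by 0.08 in BSA and 0.05 in peat with TMM factors, and by -0.14 and -0.04 without rescaling. The members' own median log2 ratio was -0.01 in BSA over glucose, -0.06 in peat over glucose and -0.08 in peat over BSA. By level, the first 50 members had a median fold of 1.28 and the last 50 one of 1.28, with 4 members of each group under 1.1.

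**Figure D3:**
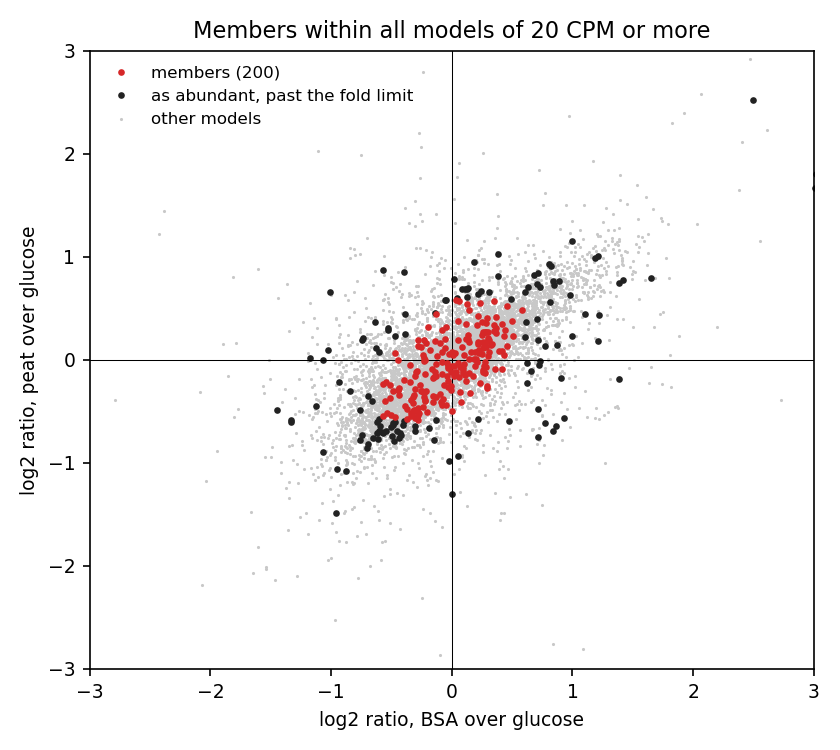
log2 ratio of rescaled CPM, BSA over glucose (horizontal) and peat over glucose (vertical), for models with at least 20 CPM in all 3 conditions; both axes share the glucose libraries, and 20 models lie outside the range shown. The 200 members fill the centre by their choice, and the 134 models that were as abundant but past the fold limit surround them.

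Most members still passed a test on the reads of these libraries. edgeR's quasi-likelihood test with Benjamini-Hochberg adjustment over 14497 models, with read layout as a term, called 86 members higher and 78 lower in BSA than in glucose, where 29.2% of all models were called higher and 34.3% lower. In peat over glucose it called 78 members higher and 92 lower, against 30.6% and 31.5% of all models. In peat over BSA it called 63 members higher and 98 lower, against 24.5% and 24.5% of all models. The choice used these contrasts, so nothing is read from the members' counts beside those shares. The called changes were small, with fitted log2 fold changes of members from -0.56 to 0.61 over the 3 comparisons and a median standard error of 0.03. With the libraries of a condition counted as 1 sample, the adjusted p-values compare libraries and not carbon sources. Without the layout term the test called 120, 104 and 68 members in the 3 comparisons, in place of 164, 170 and 161. It then called 45.5%, 41.7% and 27.1% of all models. DESeq2 called 99 members in peat over BSA, against 15.9% of all models. Without the peat single-read library, fewer members and a smaller share of all models were called in both comparisons with peat. The same held in peat over BSA without the BSA single-read library.

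Length moved with the direction of the small differences. For the 64 members no longer than 1000 nt the median log2 ratio was -0.23 in BSA over glucose and -0.30 in peat over glucose, and 15 and 9 of them were higher than in glucose. The 40 members of over 2000 nt had medians of 0.18 in both ratios, and 28 and 29 of them were higher than in glucose. The 96 members between stood at 0.06 and 0.00. Over all 7309 models with at least 20 CPM the medians of the short class were -0.36 and -0.34, and those of the long class 0.29 and 0.26. In both classes the members' medians had the same signs, within the narrower range that the choice allows. The choice used these ratios and the members are among the 7309 models, so nothing more is read from this. The sizes depend on the scaling, most of all for BSA. Without rescaling, the long members' median in BSA over glucose was 0.04 with 21 of 40 higher, and with TMM factors 0.26 with 33 higher. The short members' median was -0.37 with 6 of 64 higher without rescaling, and -0.15 with 22 higher with TMM factors. The signs of the short and of the long members' medians against glucose were the same under both. Between peat and BSA the members' medians were -0.14 for short and -0.03 for long models, against 0.00 and -0.05 over the 7309 models. The choice used this ratio and the difference was not tested, so nothing is read from it.

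The shortest and the longest member went with these medians, but not every member did. Protein ID 29446 (573 nt) had fitted log2 fold changes over glucose of 0.36 in BSA and 0.17 in peat. Protein ID 21319 (2466 nt) had -0.24 in peat over glucose. Of the 64 members no longer than 1000 nt, 15 were higher in BSA and 9 in peat than in glucose. Of the 40 members over 2000 nt, 28 and 29 were. The shortest, protein ID 54142 (468 nt), stood at 922 CPM for BSA, 801 for peat and 1196 for glucose. The longest, 155325 (4542 nt), stood at 412 CPM for BSA, 395 for peat and 320 for glucose. Members had a median length of 1301.5 nt and a range of 468 to 4542 nt, against a median of 1250 nt and a range of 150 to 12613 nt in the 134 models that were as abundant but past the fold limit. Over the 7309 models of 20 CPM or more the median was 1485 nt. Length enters CPM, so these lengths are not independent of the choice.

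**Figure D4:**
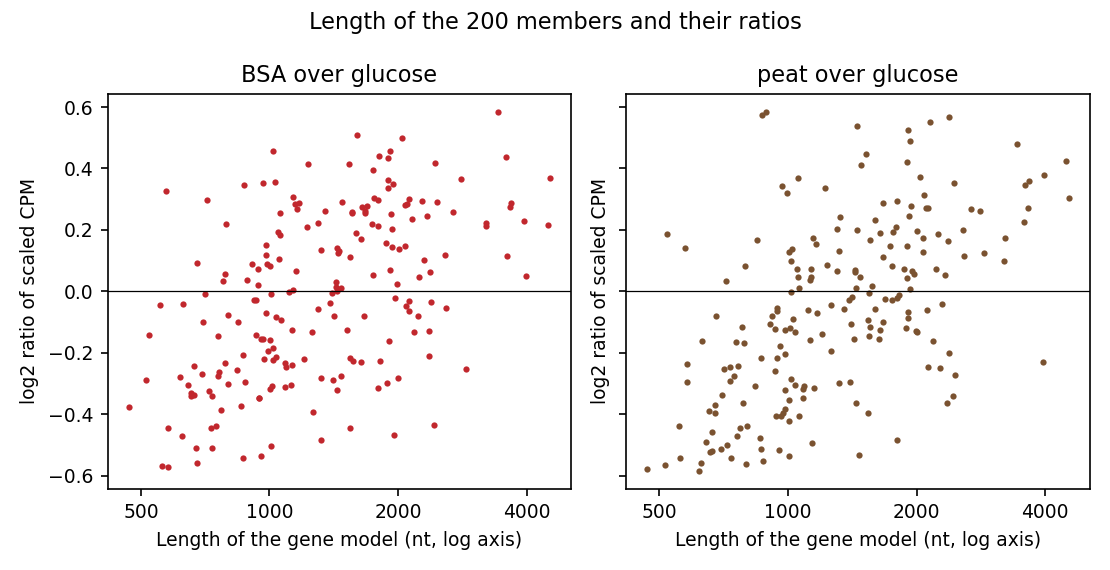
Length of the gene model (nt, log axis) against the log2 ratio of rescaled CPM for the 200 members, BSA over glucose on the left and peat over glucose on the right. Most of the 64 members up to 1000 nt lie below 0 and most of the 40 over 2000 nt lie above 0.

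The difference between read layouts was not used in the choice, which added the layouts together. In the same fit, 67 members were called higher with paired than with single reads and 7 lower, against 1.52% and 2.43% of all 14497 models. The test finds small differences more readily at high counts. Among the 134 models as abundant but past the fold limit, 34 were called higher (25.4%) and 17 lower (12.7%), against 33.5% and 3.5% of the members, and the difference between these sets was not tested. The members' median log2 fold change of paired over single reads was 0.09, against 0.05 in those models and -0.01 in all models tested, and 164 of the 200 were above 0. Layout, depth and sequencing run changed together and cannot be told apart. Fewer members were called whichever library was left out. A condition then held 1 library and the share of all models called moved as well, so nothing is read from this. DESeq2 called 40 members, against 1.35% of all models.

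The size of the layout difference was small for nearly all members. Protein ID 202878 (1799 nt) had the largest in favour of paired reads, with 649 CPM paired against 534 CPM single in BSA, 586 against 486 CPM in peat, and 623 against 508 CPM in glucose. The paired-read library was higher in 3 of 3 conditions, at a fitted log2 fold change of 0.29 ± 0.04 (SE, edgeR adjusted p = 1.62e-10). Protein ID 100883 (1442 nt) followed at 0.27 ± 0.05. In the other direction, 22763 (555 nt) had 343 CPM paired against 418 CPM single in BSA, 261 against 341 CPM in peat, and 368 against 476 CPM in glucose, lower in 3 of 3 conditions at -0.34 ± 0.05 (SE, edgeR adjusted p = 7.04e-10). Protein ID 29446 (573 nt) stood at -0.25 ± 0.04. Such a difference is common to the 3 carbon sources in the fit and leaves the ratios between them in place.

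**Figure D5:**
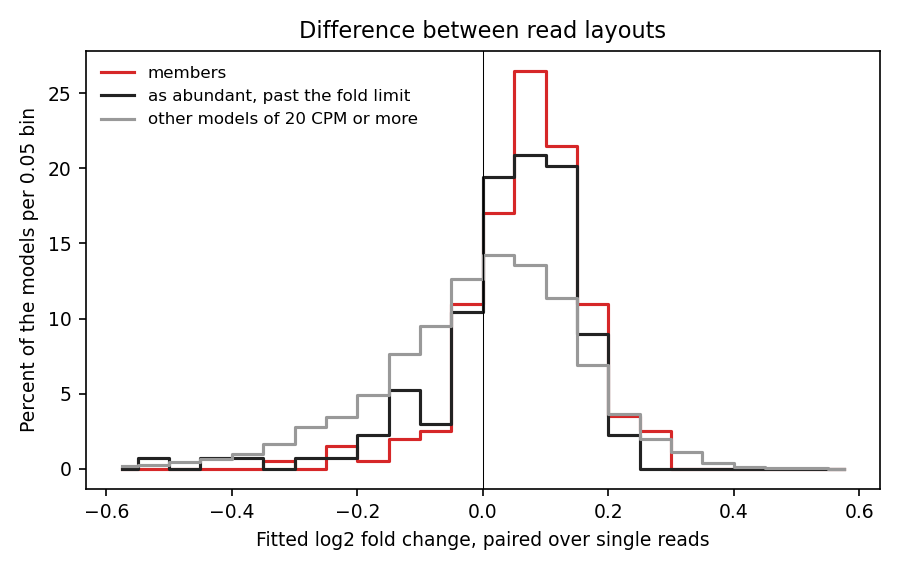
Distribution of the fitted log2 fold change of paired over single reads, as percent of models per bin of 0.05, for the members, the models as abundant but past the fold limit, and the other models with at least 20 CPM (0, 5 and 85 models lie outside the range). The members centre above 0, at a median of 0.09, with a shorter lower tail than the other sets.

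The paired-read libraries also allowed a look at the ratios in reads that did not enter a choice. For this the same rule was applied to the single-read libraries alone, and the folds of the 200 models it chose were measured in the paired-read libraries. There 185 of the 200 (92.5%) had a highest library under 1.5 times the lowest, against 56.2% of the 6964 models that reached 20 CPM in all 3 paired-read libraries. Of those 6964 models, 6506 had fewer reads in their lowest paired-read library than any member, whose lowest count was 243. Counting error weighs more on their folds, so the 2 shares are not on the same footing. The median fold of the 200 was 1.28, with a range of 1.01 to 1.7. Of 136 models equally abundant but past the limit in the single-read libraries, 13 (9.56%) were under 1.5 in the paired-read ones, with a median fold of 1.8. The 2 layouts of a condition were counted as 1 sample, so this shows that the ratios repeat between libraries and not that they would repeat in a second culture. For the members themselves the median fold in the paired-read libraries was 1.28, and 186 of them were under 1.5.

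Almost all member reads matched a single model. Of the 200 members, 4 had any read that also matched another model, against 276 of 16416 models with reads (1.68%). Shared reads made up 0.0187% of the members' reads, against 6.42% of the reads of the 134 models past the limit and 1.04% of all gene reads. The members' share rested on 4 models and that of the 134 on 5, so neither is read as a trait of its set. The member with most was protein ID 155348 (3981 nt), with 1020 and 961 CPM in BSA, 1273 and 1294 CPM in peat, and 1045 and 1025 CPM in glucose. Of its reads 2.49% were shared, nearly all of them in the single-read libraries. Protein ID 144199 (1415 nt) followed with 0.227%, and its levels of 776, 811 and 821 CPM differed by a fold of 1.06. The other 196 members had no shared read of their own, and shared reads enter their CPM only through the total that divides it.

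Among neighbours in ID order, 9 pairs were both members, which involved 16 of the 200, and among the 134 models past the limit 7 pairs involved 11. In 6 of the 9 pairs both members lay on the same side of 0 in both ratios against glucose, and in the other 3 they did not. No share over all models was set beside these counts, so nothing is read from them. In 3 pairs of short models the ratios had the same sign: 16951 and 16954, 19041 and 19043, and 19281 and 19283. All of these were lower in BSA and in peat than in glucose, with log2 ratios from -0.51 to -0.24. In another short pair, 21210 (845 nt) and 21223 (730 nt), the signs differed in peat over glucose, at 0.17 and -0.29. Short members were mostly lower than in glucose in any case. The long models 155325 and 155348 were both higher in BSA and in peat than in glucose, and 198759 and 198799 differed in direction, at -0.25 and 0.29 in peat over glucose. The files do not say whether close ID numbers mean neighbouring positions in the genome.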

How the data were processed

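RNA of 6 libraries was sequenced as 75 nt reads. Each deposited table holds unique and total gene read counts per Oidma1 gene model, per the file headers, and the RPKM that the authors computed. Each RPKM with at least 1 read gave a whole-number model length within 0.01 nt, the same in every library, so the authors scaled it to the total gene reads. For the aligner, the counter and the handling of mates, the sources used here give no name or version. Samples were grouped by the labelled carbon source. The members and lists were chosen with earlier results of these data known. No table that pairs IDs with products was used here, so 0 of the lists of products could be filled.

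All models were tested with edgeR 4.0.16 (limma 3.58.1, R 4.3.3): total gene reads, TMM, filterByExpr by condition, condition and layout as terms, 2 residual degrees of freedom, Benjamini-Hochberg adjustment, threshold 0.05. The fit was tested on simulated data. DESeq2 1.42.0, RLE factors, no low-count filter, unique reads, no layout term and leaving out each library were alternatives. Folds between conditions are ratios of rescaled summed reads with exact (Clopper-Pearson) 95% intervals, computed with scipy 1.17.1. Read layout, not a replicate number, was the block. Named models are those highest by CPM or RPKM, steadiest, nearest the limits, with most shared reads, with the largest layout differences, shortest or longest. The ID pairs were chosen after their values were seen.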

Additional observations from a re-analysis of the deposited data

Results flagged for a closer look

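Reads that match more than 1 model lie outside the main measurement. Of the 4 members with such reads, protein ID 155348 was the one whose shared percentage in BSA and in peat lay above that in glucose beyond counting error. It stood at 2.75% of its reads in BSA (95% exact interval 2.52 to 2.98) and 2.56% in peat (2.39 to 2.73), against 2.17% in glucose (1.98 to 2.36). The shared reads lay almost wholly in the single-read libraries, at 2.87% in BSA, 2.66% in peat and 2.26% in glucose. In the paired-read libraries they were 1 of 911 reads in BSA, 1 of 1329 in peat and 0 of 1013 in glucose (which allows up to 0.296%), so the difference is one between single-read libraries. Its fold between the highest and the lowest condition was 1.3 (1.28 to 1.32) on total reads and 1.29 on unique reads. Which models the reads were shared with is not given.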

How the results depend on the processing

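Of the 200 members, 91 were also chosen with a stricter fold limit (0.32 on the log2 scale), and every other planned change of the rule (fold limit of 2, TMM factors, no rescaling, unique reads, ranking by RPKM, 1 layout alone, length trend removed, 1 library left out) kept at least 139. Of the members' own folds, 192 stayed under 1.5 with TMM factors and with the length trend removed, 177 without rescaling and 174 without the glucose single-read library. Without the layout block 104 members were called in peat over glucose, against 41.7% of all models, and 68 in peat over BSA, against 27.1%. DESeq2 called 99 members in peat over BSA, against 15.9% of all models, and 40 for paired over single reads, against 1.35%. Leaving out 1 library gave 110 to 179 members in peat over glucose, 87 to 170 in peat over BSA and 36 to 68 for paired over single reads. The cause was not tested. With unique reads the members' share was 15.1% in BSA, 15.8% in peat and 16.6% in glucose. Of the 348 folds of named models under the alternatives, 307 were under 1.5. The largest was 1.77, for 22763 without the peat single-read library, against 1.36 in the main setting. A move by over 1.5 times was seen in 0 cases. The main folds were themselves near or under 1.5, so such a move could hardly occur and nothing is read from its absence. The named models include some outside the set, of which 124456 and 192288 were past 1.5 in the main setting. The 4 named layout differences passed the test in the same direction in all 40 values run. The labels carry no replicate numbers, so the read layout served as the block. With 1 sample per condition, no alternative adds a second culture, and every interval covers counting error only.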

Other observations

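The share of steady models varied with the level of the lowest condition. It was 63.7% of 3124 models from 20 to 50 CPM, 69.7% of 2273 from 50 to 100 CPM, 74.6% of 1229 from 100 to 200 CPM, 64.1% of 463 from 200 to 400 CPM, 56.1% of 148 from 400 to 800 CPM and 65.3% of 72 at 800 CPM or more. Low counts add counting error to the fold, so the lower classes are not on the same footing as the upper ones. Over the 334 models at or above the level of the last member, 59.9% were steady, against 67.3% of the 7309 models with at least 20 CPM.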
